A study of Drosophila melanogaster with 4 samples.

Results

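The glutathione S-transferase (GST) family was followed across hormone and radiation treatment of a Drosophila melanogaster cell line. The members are all genes whose symbol in the platform annotation is Gst, a class letter D, E, O, S, T or Z, and a number. This rule, which uses no measured value, gave 36 probe sets for 34 genes among the 10844 genes that have a probe set of their own on the array. They comprise 11 genes of class D (Delta), 14 of class E (Epsilon), 3 of class O (Omega), 3 of class T (Theta), 2 of class Z (Zeta) and 1 of class S (Sigma). GstO2 had several probe sets and was represented by the one with the highest mean log2 signal.

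Cytosolic GSTs are dimeric enzymes that join the thiol of glutathione to electrophilic compounds, among them insecticides, plant toxins and the reactive aldehydes left by lipid peroxidation. Delta and Epsilon GSTs expanded within the insects and lie in gene clusters, while Omega, Sigma, Theta and Zeta GSTs have counterparts in vertebrates. In flies several Delta genes are targets of the transcription factor CncC, the counterpart of mammalian Nrf2, which its partner Keap1 holds back in the absence of oxidants or electrophiles.

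The cells were Kc167, an embryonic line cultured without serum. They were kept for 72 h in medium alone or in the presence of 10 µM muristerone A, an ecdysteroid agonist of the ecdysone receptor that is called ecdysone below. Each culture was then mock-treated or given 280 Gy of gamma rays and left for 90 min before total RNA was taken. The 4 conditions were control (neither treatment), ecdysone, irradiated and combined (both treatments). Each condition was measured on 1 Affymetrix DrosGenome1 array, so there are no replicates, and precision is limited by how few arrays there are. Fewer cells of a kind and less RNA per cell cannot be told apart in such cultures.

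Signals are MAS5 units after scaling of the arrays, and a floor of 119.4 units marks the median of all signals. Between 48.8% and 51.0% of the 13966 probe sets lay above it on each array. The irradiated and combined arrays were scanned before the control and ecdysone arrays, so scan order and irradiation cannot be told apart. The log2 difference between the 3′ and 5′ control probe sets of GAPDH was 0.52 on control, 0.82 on ecdysone, 1.49 on irradiated and 1.81 on combined, and its part in the irradiation results was not tested. The same measure for actin was -0.29, 0.27, 0.93 and -0.47 in that order, so it was high on the irradiated array but not on the combined one. For EIF-4A it was 0.01, 0.19, 0.58 and -0.34, likewise highest on irradiated and lowest on combined. Kc167 is regarded as hemocyte-like. On the control array 6 of 11 plasmatocyte markers with a probe set lay above the floor, near the 50.3% of all probe sets there. So did 3 of 5 fat body, 3 of 4 neuron, 1 of 3 muscle and 0 of 3 germline markers. These counts therefore do not single out hemocytes. The plasmatocyte receptor gene crq lay at the floor on all 4 arrays.

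Of the 34 GST genes, 19 lay above the floor on every array, 11 on some arrays and 4 on none. The 4 were GstE10, GstE11, GstE14 and GstZ1. GstE14, which is required for ecdysteroid synthesis in the fly's steroid-producing glands, ranged from 12.2 to 78.2 units. GstZ1 ranged from 21.6 to 61.3 units. Every class D gene reached the floor on at least 1 array, although GstD10 did so at 127.1 units on control alone and GstD11 at 237.6 units on the irradiated array alone.

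**Figure D1:**
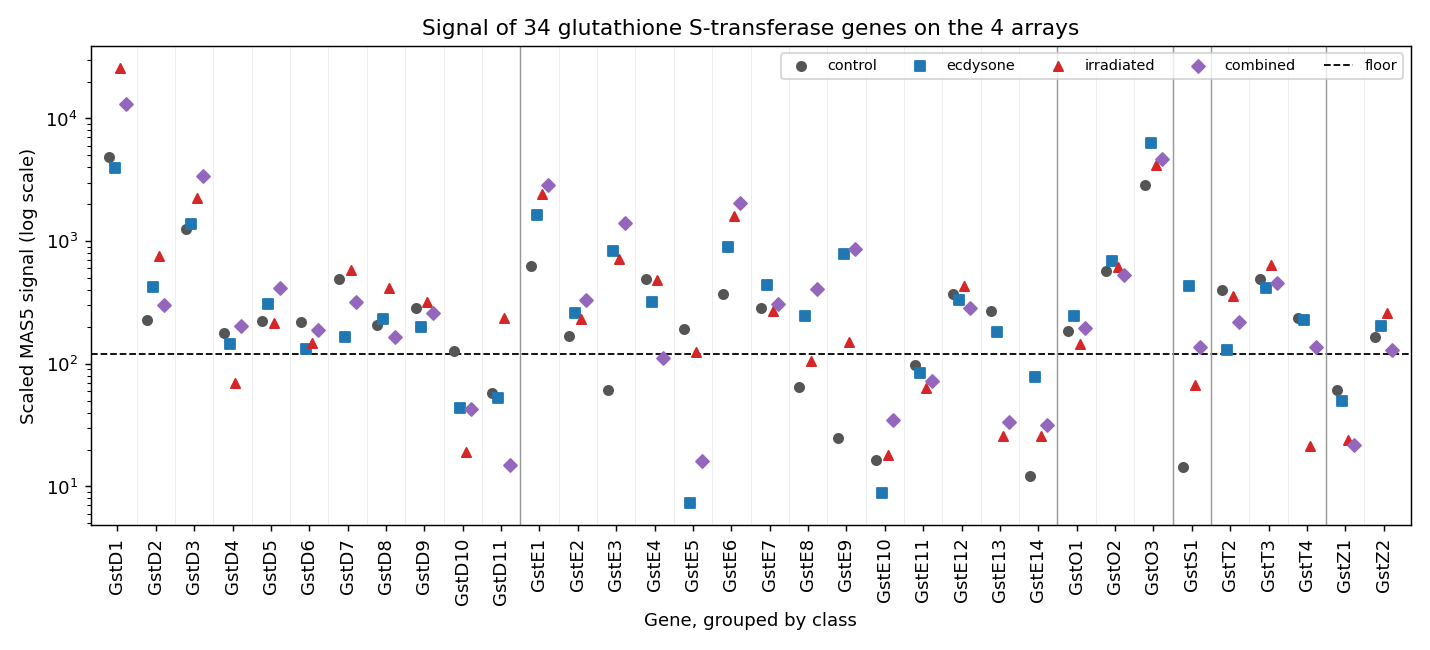
Scaled MAS5 signal (vertical axis, log scale) of each GST gene (horizontal axis, grouped by class) on the control, ecdysone, irradiated and combined arrays, 1 point per array, with the floor of 119.4 units as a dashed line. GstD1 separates into 2 unirradiated points at 4852.5 and 3920.5 units and 2 irradiated points at 25932.5 and 13044.0 units, and GstE10, GstE11, GstE14 and GstZ1 lie below the floor on all arrays.

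Differences are given below as log2 values on signals raised to the floor. For each treatment the first value is from the pair of arrays without the other treatment and the second from the pair with it. Folds average both pairs, and "at least" means that an array on the lower side was under the floor. The test is the additive limma fit of both treatments to unfloored signals, adjusted by the Benjamini-Hochberg method over all 5981 probe sets with a mean log2 signal above the floor. It covered 24 of the 34 GST genes. The 10 others were the 4 genes at the floor together with GstD10, GstD11, GstE5, GstE13, GstS1 and GstT4. The words rose and fell are kept for genes past an adjusted p of 0.05.

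Irradiation raised 1 Delta and 2 Epsilon genes. GstD1, a Delta enzyme known for metabolising DDT and used as a reporter of oxidative stress in flies, rose 4.22-fold. GstE6 rose 3.15-fold and GstE1 rose 2.60-fold, both of them Epsilon enzymes. No GST gene fell in the limma fit, and none was lower at an unadjusted p under 0.05. The 3 that rose were 12.5% of the 24 tested GST genes, against 0.468% of all tested probe sets that rose and 0.0167% that fell.

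The irradiation difference of GstD1 was 2.42 without and 1.73 with ecdysone (limma SE of the mean difference 0.25, adjusted p = 1.06e-05). Both irradiated arrays lay above both unirradiated arrays. Its ecdysone differences were -0.31 and -0.99, so the lower signal stood on the ecdysone-treated array of each pair, but this did not pass (adjusted p = 0.307).

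GstE6 measured 368.2 units on control, 904.0 on ecdysone, 1605.9 on irradiated and 2054.4 on combined. The irradiated arrays again lay above the unirradiated ones, and within each of these the ecdysone-treated array was the higher. The irradiation differences were 2.12 and 1.18 (limma SE 0.36, adjusted p = 0.0238).

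GstE1 ran through the arrays in the same order, at 627.9, 1631.8, 2414.6 and 2860.8 units. Its irradiation differences were 1.94 and 0.81 (limma SE 0.32, adjusted p = 0.0364). For both Epsilon genes the irradiation difference was larger without ecdysone than with it, with differences between the pairs of -0.94 for GstE6 and -1.13 for GstE1. With 1 array per condition this departure from additivity could not be tested.

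Of the 24 tested GST genes, 5 were higher with irradiation at an unadjusted p under 0.05, against 4.36% of all tested probe sets higher and 2.51% lower at that threshold. Besides the 3 above these were GstE3 and GstD3. GstE3 measured 61.2 units on control, 828.5 on ecdysone, 711.8 on irradiated and 1401.9 on combined, with irradiation differences of 2.58 and 0.76 (limma adjusted p = 0.0952). Its control array stood alone at the floor. GstD3 measured 1257.3, 1384.4, 2257.2 and 3422.7 units, with irradiation differences of 0.84 and 1.31 (limma adjusted p = 0.111). Both irradiated arrays of GstD3 lay above both others.

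A rule of size, which is no test, asked for a 2-fold change of the same sign in each pair. For irradiation it called GstD1 and GstE6, 6.67% of the 30 GST genes above the floor on at least 1 array, against 1.90% of all such probe sets called higher and 1.61% called lower. Without ecdysone 5 of the 30 genes were at least 2-fold higher (background 11.4%) and 1 was lower (background 12.0%). With ecdysone 3 were higher (background 10.5%) and 2 lower (background 11.7%). The genes at least 2-fold higher were thus 16.7% and 10.0% of the 30 in the single pairs, the latter near the background.

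The genes that rose with irradiation belong to classes D and E, which held 18 of the 24 tested genes, and differences between classes were not tested. Class D had a median difference of 0.27 over the 11 genes above the floor, and class E one of 0.23 over 11, where all probe sets had -0.02. The class medians rest on the mean of both pairs. Within class D the differences ran from -0.05 to 2.08, so GstD1 and GstD3 stood above 9 relatives of which the next was GstD2 at 0.63. GstD2 was at 1.74 without ecdysone and -0.49 with it, the most negative change in irradiation response between the pairs in the family, at -2.23. The most positive was that of GstD6 at 1.07, from -0.56 to 0.51, with GstD4 close to it at 1.06. Both ranks hold on floored signals only. On unfloored signals GstE3 would pass GstD2 and GstT4 would pass GstD6, each through an array under the floor. These responses were not tested against each other.

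The 3 Omega genes had a median irradiation difference of -0.13 and the 3 Theta genes one of 0.26. None of their 5 tested members passed limma, or an unadjusted p under 0.05, for irradiation. GstT4 was not tested and measured 234.3 units on control, 226.7 on ecdysone, 21.5 on irradiated and 135.8 on combined. GstE13, also untested, measured 269.1, 182.6, 25.8 and 33.3 units. Both irradiated arrays of GstE13 were under the floor, giving differences of -1.17 and -0.61, the lowest mean of the family at -0.89.

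**Figure D2:**
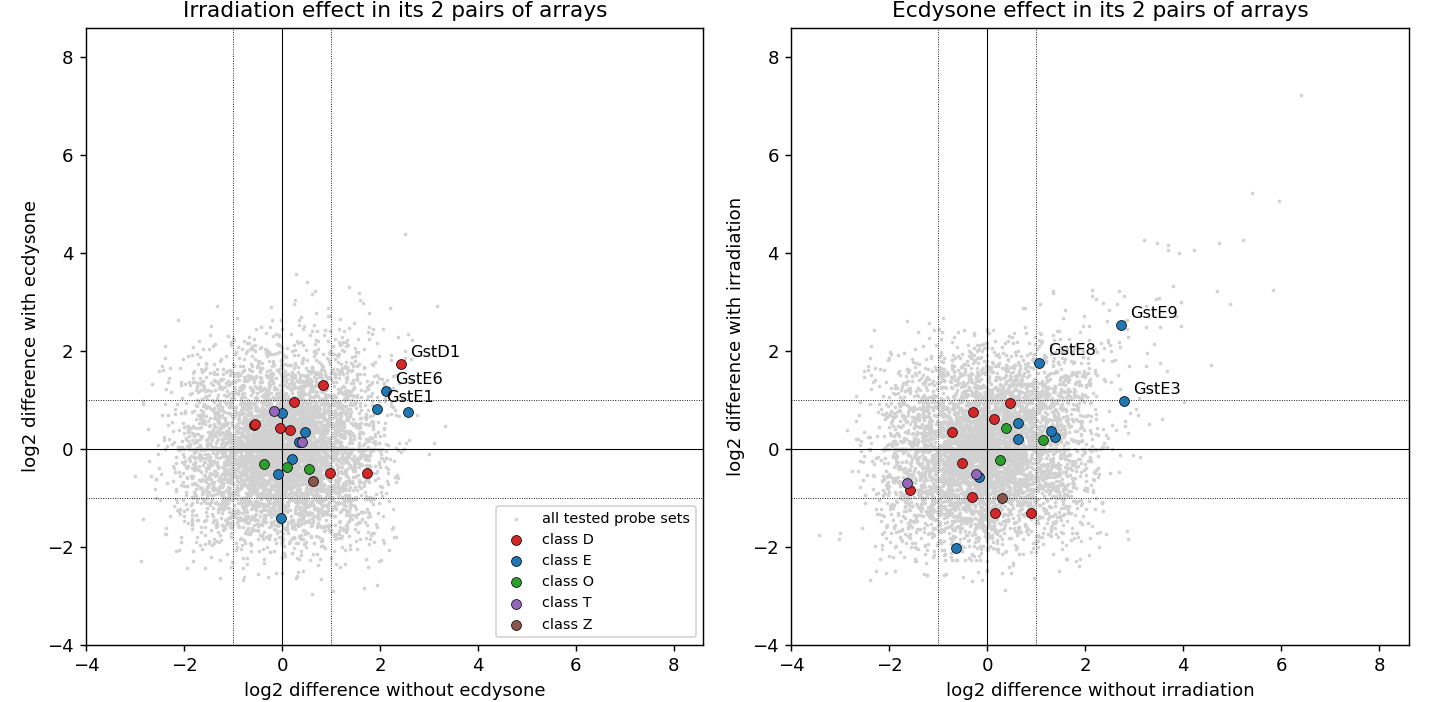
Log2 difference in the pair of arrays without the other treatment (horizontal axis) against that in the pair with it (vertical axis), for irradiation on the left and ecdysone on the right. Grey points are all 5981 tested probe sets, coloured points the 24 tested GST genes by class, and dotted lines mark 2-fold. Named genes passed limma or the rule of size. GstD1 lies at 2.42 and 1.73 for irradiation, and GstE9 at 2.73 and 2.52 for ecdysone.

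Ecdysone raised 2 Epsilon genes, GstE9 and GstE3, and no gene of another class. GstE9 measured 24.8 units on control, 791.2 on ecdysone, 150.9 on irradiated and 865.9 on combined. Both ecdysone-treated arrays lay far above both others, with differences of 2.73 and 2.52. The mean difference was at least 6.17-fold (limma adjusted p = 0.0177), and its irradiation differences were 0.34 and 0.13. The control array was far under the floor, so both differences taken against it are bounds. On unfloored signals the limma coefficients were 3.76 for ecdysone and 1.37 for irradiation, the latter at a limma adjusted p of 0.844.

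GstE3, whose signals are given above, rose at least 3.70-fold with ecdysone, with differences of 2.80 and 0.98 (limma adjusted p = 0.0185). The 2 genes that rose were 8.33% of the 24 tested, against 1.44% of all tested probe sets. None fell, against 0.552% of all. At an unadjusted p under 0.05 in limma 5 were higher with ecdysone, GstE1, GstE3, GstE6, GstE9 and GstO3, and 1 was lower, GstD1, against 5.05% and 4.71% of all tested probe sets.

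By the rule of size 2 GST genes were called for ecdysone, GstE9 and its neighbour GstE8, both higher, or 6.67% of the 30 above the floor. The background was 2.78% called higher and 2.09% called lower. GstE8 measured 65.1, 246.7, 104.7 and 405.0 units in the order control, ecdysone, irradiated and combined. Both arrays without hormone were under the floor, so GstE8 entered the 30 only through the arrays on which it is high. Its differences were 1.05 and 1.76 (limma adjusted p = 0.617). GstE8 was no longer called under median scaling, which called GstE3 and GstE9, or with the floor at the 60th percentile.

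Without irradiation 7 of the 30 genes were at least 2-fold higher with ecdysone (23.3%, background 13.0%) and 2 were lower (background 12.9%). The 7 were GstE1, GstE3, GstE6, GstE8, GstE9, GstO3 and GstS1. GstE8 and GstS1 were above the floor only on hormone-treated arrays, so they entered the 30 through the arrays on which they are high. The share of 23.3% is thus partly set by the floor. With irradiation only GstE8 and GstE9 were at least 2-fold higher (background 11.2%), while GstD2, GstD8 and GstE4 were at least 2-fold lower (background 11.7%). GstE1 differed by 1.38 and 0.24 and GstE6 by 1.30 and 0.36, and neither passed limma for ecdysone (adjusted p = 0.312 and 0.420).

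Class E had a median ecdysone difference of 0.58 over 11 genes and class D one of -0.21 over 11, where all probe sets had -0.02. Class E also held the family's most negative value, that of GstE4. This gene measured 495.8 units on control, 319.2 on ecdysone, 485.7 on irradiated and 110.7 on combined, with ecdysone differences of -0.64 and -2.02 (limma adjusted p = 0.532). Its combined array stood apart from the other 3. In class D, GstD7 had ecdysone differences of -1.57 and -0.85 (limma adjusted p = 0.55).

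The remaining tested Delta and Epsilon genes passed for neither treatment. GstD4 ranged from 70.3 to 201.9 units over the 4 arrays and GstD5 from 216.9 to 412.8. GstD8 ranged from 165.4 to 411.9 units and GstD9 from 200.1 to 319.2. GstE7 ranged from 269.0 to 443.0 units and GstE12 from 287.3 to 427.7. For GstD5, the highest array was the combined one, for GstD8, GstD9 and GstE12 the irradiated one, and for GstE7 the ecdysone one.

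The Theta genes had a median ecdysone difference of -0.37 over 3 genes. GstT2 was the lowest, at 402.1 units on control, 129.0 on ecdysone, 358.8 on irradiated and 220.3 on combined. Both ecdysone-treated arrays lay below both others, but the differences of -1.64 and -0.70 did not pass limma (adjusted p = 0.711). GstT3, the Theta gene with the brightest probe set, stayed between 415.3 and 644.9 units.

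The Omega genes had a median ecdysone difference of 0.41. GstO3 measured 2856.2 units on control, 6282.7 on ecdysone, 4147.1 on irradiated and 4683.8 on combined. It was over 2-fold higher with ecdysone in the unirradiated pair, at 1.14, and at 0.18 in the irradiated pair (limma adjusted p = 0.345). GstO1 ranged from 145.3 to 244.4 units, with ecdysone differences of 0.39 and 0.43. The probe set that represents GstO2 ranged from 528.7 to 682.8 units. Its other probe sets disagreed with it, one reading 389.7 units on irradiated and at most 27.9 on the other arrays, and the other 374.7 units on ecdysone and 11.2 on control.

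GstS1, the Sigma enzyme, which is abundant in fly flight muscle and acts on a product of lipid peroxidation, measured 14.4 units on control, 432.1 on ecdysone, 67.2 on irradiated and 136.4 on combined. The ecdysone array stood apart from the 3 others, giving ecdysone differences of 1.86 and 0.19 and irradiation differences of 0.00 and -1.66. Its mean was too low for the test. GstZ2, of the Zeta class, whose members act as maleylacetoacetate isomerases in tyrosine breakdown, ranged from 129.0 to 257.3 units and was highest on the irradiated array.

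Read across all arrays, 6 of the 11 Epsilon genes above the floor on at least 1 array were lowest on control (54.5%, against 25.1% of all such probe sets). The same 6 genes, GstE1, GstE2, GstE3, GstE6, GstE8 and GstE9, were highest on combined (54.5%, against 23.4% of all). GstE8 and GstE9 entered this count mainly through their hormone-treated arrays, on which they are high, so the share is partly set by the floor. GstE2 took this course with small steps, at 168.8, 261.9, 232.6 and 332.7 units, and did not pass limma for either treatment. Of the 11 class D genes, 3 had their highest signal on combined and 6 on irradiated, where 24.6% of all such probe sets had theirs. GstD11, among the 6, was above the floor on the irradiated array alone, so its place in the count was set by the floor. Of the 9 tested class D genes, 5 were highest on irradiated. The 3 Omega genes all had their highest signal on ecdysone, as had 25.6% of all. These counts describe 4 arrays that are shared by all genes and have no test of their own.

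In the RefSeq annotation of assembly Release 6 plus ISO1 MT the 11 Delta genes form 1 run on chromosome arm 3R, broken by a long noncoding RNA between GstD1 and GstD2 and by CG10035 between GstD8 and GstD11. On arm 2R, 10 of the 14 Epsilon genes form another run, with a pair of pseudogenes between GstE3 and GstE4. GstE11, GstE12, GstE13 and GstE14 lie apart from it, and the 6 Epsilon genes above the floor that were lowest on control belong to the run. GstE14, under the floor on all arrays and also lowest on control, does not. Some neighbours of a called gene had its sign and others did not. GstD9, beside GstD1, had irradiation differences of 0.16 and 0.38, positive like those of GstD1 but smaller. GstE2, between GstE1 and GstE3, was positive in all 4 differences. GstE7, beside GstE6, had irradiation differences of -0.09 and -0.52. GstE5, between GstE4 and GstE6, measured 192.8 units on control and 7.3 on ecdysone, so it lay at the floor with hormone. Whether probe sets of these related genes also detect each other's transcripts was not tested, since probe sequences were not used here.

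**Figure D3:**
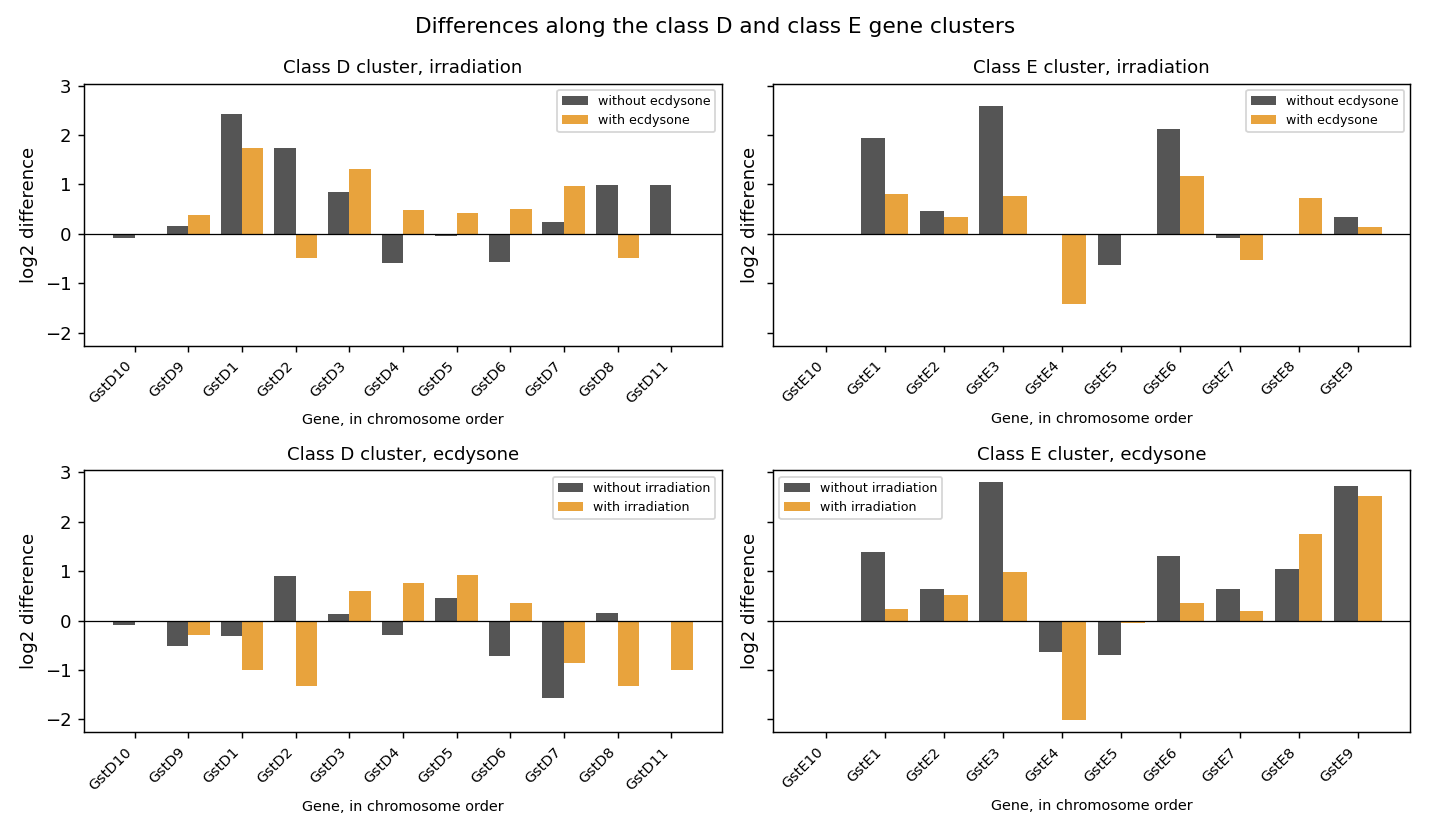
Log2 differences (vertical axis, floored signals) of the Delta genes on the left and the 10 clustered Epsilon genes on the right, in chromosome order (horizontal axis), for irradiation above and ecdysone below. Grey bars are the pair without the other treatment and yellow bars the pair with it. GstE9 and GstE8 at one end of the Epsilon run have positive ecdysone bars in both pairs, as have GstE1, GstE2, GstE3, GstE6 and GstE7. GstE4 and GstE5 have 2 negative ones each, those of GstE4 at -0.64 and -2.02.

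Genes that make and recycle glutathione showed no call. Of 12 genes listed 10 had a probe set and 8 were tested, and none rose or fell with irradiation in limma, although 4 of the 8 were higher at an unadjusted p under 0.05, where 4.36% of all tested probe sets were. The median irradiation difference of the 8 was 0.87, where all tested probe sets had 0.00. The thioredoxin gene Trx2 was at 2.09 and 1.03 (limma adjusted p = 0.0699), and the thioredoxin reductase gene Trxr1, whose product also recycles glutathione indirectly in flies, was at 0.60 and 1.32 (adjusted p = 0.206). Gclc, the catalytic subunit of the enzyme that limits glutathione synthesis, measured 420.9 units on control, 176.2 on ecdysone, 672.2 on irradiated and 706.6 on combined (limma adjusted p = 0.587), and its partner Gclm was at -1.73 and 1.15 (limma adjusted p = 0.961). The glutathione peroxidase gene Gtpx measured 4296.0 and 3469.4 units without irradiation and 7268.6 and 6805.0 with it (limma adjusted p = 0.167). Its irradiated arrays both lay above the others. For ecdysone the list median was -0.01, and none of the 8 passed limma or an unadjusted p under 0.05.

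Among genes for proteins related to GSTs but named otherwise, 2 fell with ecdysone. Of 7 listed, 4 were tested and none rose. Of all tested probe sets 0.552% fell with ecdysone and 1.44% rose. Mgstl, a membrane-bound microsomal GST unrelated in fold to the cytosolic family, measured 7442.8 units on control, 3275.6 on ecdysone, 11529.6 on irradiated and 4640.1 on combined. Both ecdysone-treated arrays lay below both others, with differences of -1.18 and -1.31 (limma adjusted p = 0.00221). Its other probe sets had mean differences of -1.30 and -1.04 and did not pass (limma adjusted p = 0.077 and 0.529). Clic, a chloride intracellular channel protein with a GST-like fold, fell by 1.09 without irradiation and by 1.76 with it (limma adjusted p = 0.0298). The sepia gene se, an Omega GST by sequence that makes a precursor of the red eye pigments, was at the floor on all 4 arrays. None of the 4 tested genes passed for irradiation, with 1 higher and 1 lower at an unadjusted p under 0.05 in limma. At that threshold 4.36% of all tested probe sets were higher and 2.51% lower.

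Of the regulators in the CncC list, cnc and its partner maf-S were tested and did not pass limma for either treatment, and Keap1 was too weak for the test. The brightest of the 4 probe sets of cnc measured 845.4, 588.3, 922.3 and 613.4 units in the order control, ecdysone, irradiated and combined. Its mean ecdysone difference was -0.56. Another tested probe set of cnc, at 46.3, 280.0, 132.3 and 348.8 units, had the opposite sign at 1.31 (limma adjusted p = 0.616). The remaining ones were too weak for the test, at -0.02 and -0.44. Of 7 tested genes of the list, Cyp6a8, a cytochrome P450, rose with ecdysone and none fell. Of all tested probe sets 1.44% rose and 0.552% fell. For irradiation none of the 7 passed limma and 1 was higher at an unadjusted p under 0.05, against 4.36% of all tested probe sets. Of the listed exporters of glutathione conjugates 2 were tested and neither passed for either treatment, with 1 higher with irradiation at an unadjusted p under 0.05. That gene, MRP, an ABC transporter, measured 231.6 units on control, 615.0 on ecdysone, 844.0 on irradiated and 856.0 on combined, so its control array was the lowest.

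**Figure D4:**
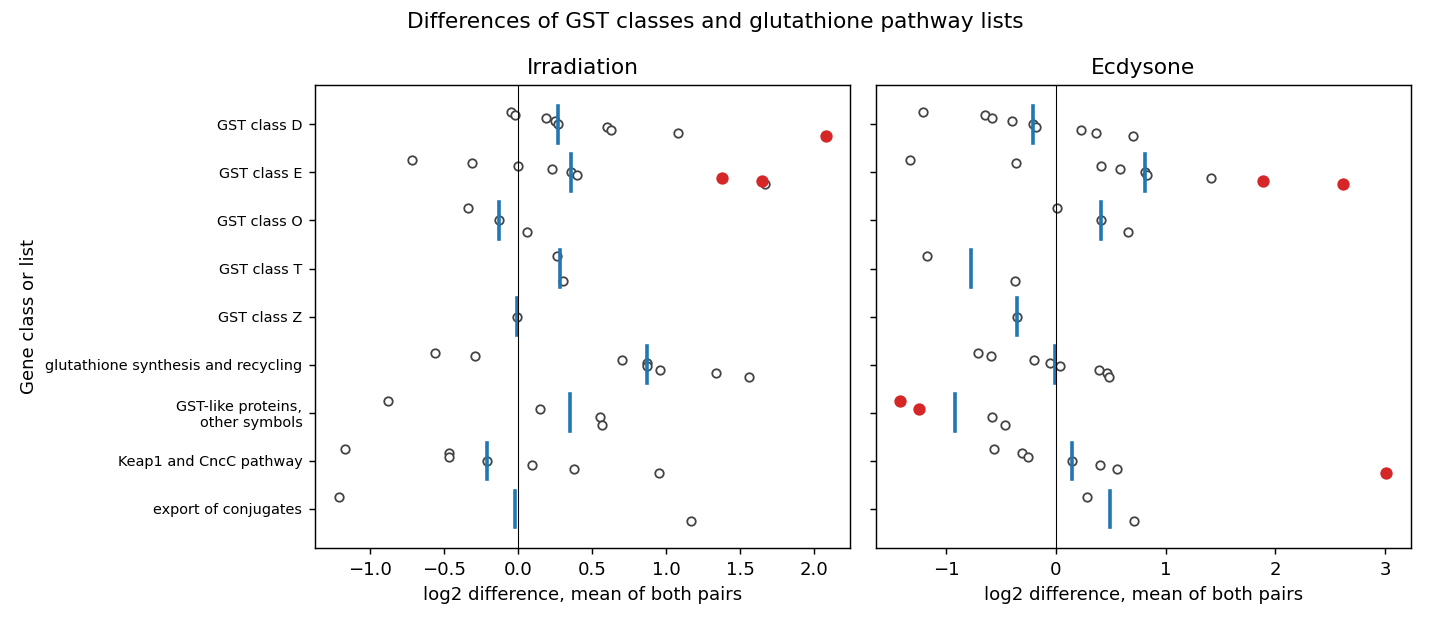
Log2 difference averaged over both pairs (horizontal axis, floored signals) for tested genes of each GST class and each related list (vertical axis), for irradiation on the left and ecdysone on the right. Each circle is a gene, filled red where the limma adjusted p was under 0.05, and blue bars are medians. The genes of glutathione synthesis and recycling have an irradiation median of 0.87 with no filled circle.

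Markers of hemocytes also changed with ecdysone. Of 8 tested plasmatocyte markers the matrix genes Col4a1 and Pxn rose and the hemolectin gene Hml fell. Of all tested probe sets 1.44% rose and 0.552% fell. The summed signal of the 11 markers with a probe set was 2619.5 on control and 2887.1 on irradiated, against 6855.2 on ecdysone and 9841.4 on combined. Most of this difference lay in Col4a1 and Pxn, since the 9 other markers summed to 1971.3 on control, 1959.0 on ecdysone, 2063.4 on irradiated and 2389.3 on combined. The sum of these 9 hides opposite changes. The collagen gene vkg had ecdysone differences of 1.97 and 2.71 (limma adjusted p = 0.0877), and Hml had -1.70 and -2.21. The part of these markers in the GST results was not tested. For irradiation none of the tested markers of plasmatocytes, fat body, neurons or muscle passed limma, and no germline marker could be tested. At an unadjusted p under 0.05 in limma 2 of the 4 tested fat body markers were higher with irradiation and 1 lower, against 4.36% and 2.51% of all tested probe sets. With ecdysone 1 of the 4 was higher at that threshold, against 5.05% of all, and none passed the adjusted one.

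The limma calls rest on 1 residual degree of freedom, the disagreement of the 2 pairs, against a median of 29.4 from a prior that follows signal intensity. Without the intensity trend no probe set on the array passed for either treatment, GST genes included. In that fit 303 of all 5981 probe sets were at an unadjusted p under 0.05 for irradiation and 418 for ecdysone.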

How the data were processed

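The authors deposited 1 MAS5 signal intensity per probe set and array, per the labels' processing notes. No version is stated. Each of the 4 arrays is the only one of its condition and was grouped by its title. Here the arrays were scaled to a common mean of the 13966 non-control probe sets, trimmed by 2% at each end (factors within -0.0667% and 0.0503% of 1), and signals were floored at their overall median of 119.4 units for log2 differences. Platform annotation named 1 gene for 12443 probe sets, several for 327 and none for 1196, and all 36 GST symbols matched RefSeq by gene identifier. limma 3.58.1 in R 4.3.3 fitted both treatments additively with an intensity-dependent prior, and was tested on simulated data. The simulated noise was drawn from that same prior, so the simulation cannot show whether the prior is right for these arrays. Tables used Python 3.11.15, numpy 2.4.6 and pandas 2.3.3, and figures matplotlib 3.10.9. The genes named are members called by limma or the rule of size, the brightest of each class, the extremes of the interaction and list genes past limma. Others were named after their values were seen. The members and lists were chosen with earlier results of these data known. Alternatives were other scalings, floors, fold and p thresholds, single pairs, all probe sets of a gene and other limma priors.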

Additional observations from a re-analysis of the deposited data

How the results depend on the processing

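GstD1 rose with irradiation under 7 of 8 alternatives, at 1.77 to 2.16 on the log2 scale, and did not pass without the intensity trend (limma adjusted p = 0.846). The count of GST genes higher with irradiation, 3 in the report, was 1 (GstD1) with quantile normalization, with the floor at the 60th percentile and with no floor, and 0 without the intensity trend. The count higher with ecdysone, 2 in the report, was 0 under each of these 4 settings. The limma adjusted p ranged from 0.00345 to 0.846 for GstE6 and from 0.00659 to 0.846 for GstE1 with irradiation, and from 0.00227 to 0.668 for GstE9 and from 0.00272 to 0.716 for GstE3 with ecdysone. With the robust prior GstE1 was at 0.0686. The rule of size called 2 genes for irradiation in the report, 1 with quantile normalization, 4 with no floor, 7 at 1.5-fold, 1 at 3-fold, 6 in the pair without ecdysone alone and 5 in the pair with it alone. For ecdysone it called 2 genes in the report, 4 with the floor at the 25th percentile, 1 at the 60th, 4 with no floor, 6 at 1.5-fold, 1 at 3-fold, 9 in the pair without irradiation alone and 5 in the pair with it alone. The added genes with no floor include values under the floor, such as GstS1 and GstE5. Counts of limma calls moved both ways with the floor, falling with 4245 probe sets tested at the 60th percentile and with 13966 at no floor. With 11663 tested at the 25th percentile 4 were higher with irradiation, GstE3 being added, and 2 with ecdysone. Median scaling and an adjusted p threshold of 0.1 also gave 4 for irradiation with GstE3 added, and the robust prior gave 2. Median scaling left 2 calls of the rule of size for ecdysone but with GstE3 in place of GstE8. The cause was not tested. Under the 7 alternatives the class medians for irradiation ran from 0.25 to 0.36 in class D and from 0.00 to 0.33 in class E. The 0.00 of class E, against 0.23 in the report, came with the floor at the 25th percentile. For ecdysone the medians ran from -0.40 to -0.18 in class D and from 0.45 to 0.58 in class E. No paired analysis was possible because the labels carry no replicate numbers and each condition has 1 array, and for the same reason no replicate could be left out.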
